A study of Mus musculus with 12 samples.

Results

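Lungs of mice that lack both Tlr3 and Mavs were compared with wild-type lungs after exposure to an extract of house dust mite (D.f. in the labels). The comparison rests on 4 of the 12 libraries of the series, taken by their sample titles: replicates 5 and 6 of the double knockout (DKO) and replicates 3 and 4 of wild type (WT), all given the extract. A single DKO library (number 2) and a single WT library (number 1) from lungs given PBS show the level of each gene without extract and enter no test of their own. These 6 libraries were prepared as a knockout set, and the other 6 libraries, all from WT mice, belong to a separate set that served here only in an alternative fit. Every mouse of the knockout set had the B6 background and an age of 6 to 8 weeks, and lungs were taken 14 to 16 h after treatment. The DKO mice carry both deletions throughout the body, per the labels' genotype, so all lung cell types are affected in the same mice. The dose and route of the extract, the origin of the WT mice relative to the DKO mice, and the number of animals behind a library stand in none of the sources used here. The p-values below hence rest on the scatter of these few libraries, part of which may be technical. Below, DKO and WT stand for the lungs given extract unless PBS is named.

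TLR3 is an endosomal receptor for double-stranded RNA, and it signals through the adaptor TRIF (gene Ticam1). MAVS sits on mitochondria and relays the signal of the cytosolic RNA helicases RIG-I (Ddx58) and MDA5 (Ifih1). Both routes lead to the kinases TBK1 and IKK epsilon and to the transcription factors IRF3 and IRF7, which switch on type I and type III interferons. Interferon bound to its receptor activates a complex that contains STAT2 and IRF9, which acts on a promoter sequence called the interferon-stimulated response element and raises the transcription of a large group of antiviral genes. With both Tlr3 and Mavs removed, these RNA-sensing routes are missing together, and the comparison asks which genes of the lung differ when the extract is given to such mice.

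The 6 libraries held 15687699 to 20945618 reads assigned to genes, in tables of 22609 genes. Levels are CPM, reads of a gene relative to the library size after TMM scaling. On this scale no reads at all still leave room for 3 counts, which is 0.148 to 0.189 CPM over the 6 libraries. This floor covers counting error only. Of 6 lung markers, including surfactant protein C (Sftpc) and the alveolar type 1 receptor Ager, all 6 were read in every library, and their summed level was 14460 and 10062 CPM in DKO, 13100 and 12014 CPM in WT, 12704 CPM in DKO with PBS and 11533 CPM in WT with PBS. Xist, the X-inactivation RNA of females, reached at most 0.797 CPM, while the Y-linked gene Ddx3y lay between 107 and 121 CPM in the 6 libraries. The 2 DKO libraries differed from each other more than the 2 WT libraries did. Among genes whose mean log2 CPM reached 1, 445 (3.34%) differed at least 2-fold between DKO replicates 5 and 6, and 45 (0.337%) between WT replicates 3 and 4. The genes behind this difference are described further on. Counts of calls with single libraries left out are given beside most lists. The shares of all genes called in the same fits are given with the whole transcriptome. A list count near such a share is no result about the list.

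Both targeted genes were far lower in DKO. Mavs (chromosome 2, 131059799 to 131073761, plus strand, NCBIM37) had 2.66 and 2.35 CPM in DKO and 34.3 and 32.2 CPM in WT, with 3.09 CPM in DKO with PBS and 36.4 CPM in WT with PBS. Its level was 2.5 ± 0.219 CPM in DKO and 33.3 ± 1.48 CPM in WT (SD, n = 2 each), a log2 fold change of -3.73 ± 0.14 (SE, edgeR adjusted p = 0.00413). Tlr3 (chromosome 8, 46481019 to 46495962, minus strand) had 14.8 and 10 CPM in DKO and 156 and 113 CPM in WT, with 10.5 CPM in DKO with PBS and 42.4 CPM in WT with PBS. The genotypes did not overlap in either gene, and the log2 fold change of Tlr3 was -3.44 ± 0.25 (adjusted p = 0.00988). Tlr3 was thus low in DKO with and without extract, while the WT libraries with extract stood above the WT library with PBS. The counts cover the whole gene, and which exons were removed stands in none of the sources used here, so the reads that remain may come from outside the deleted part.

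Over the whole transcriptome, 387 of 15294 genes tested (2.53%) differed between DKO and WT at an adjusted p below 0.05 in edgeR's quasi-likelihood test. Of these, 308 (2.01%) were lower and 79 (0.517%) higher in DKO. At an unadjusted p below 0.05 there were 2784 genes (18.2%). The 4 libraries did not overlap between genotypes in 3916 genes that were lower (25.6%) and 3790 that were higher (24.8%) in DKO, and the median log2 fold change over all genes was 0.01. DESeq2 called 528 lower (3.45%) and 201 higher (1.31%). The counts depended on which libraries gave the spread. Without WT replicate 3 there were 7 calls (0.0460%) and without WT replicate 4 there were 17 (0.111%), all of them lower in DKO, where the spread comes from the DKO pair alone. When DKO replicate 5 was left out, so that it came from the WT pair alone, 1775 genes were lower (11.7%) and 1273 higher (8.36%). The fit without DKO replicate 6 gave 1419 lower (9.34%) and 1060 higher (6.98%). All 387 genes were called in the same direction without either DKO library.

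**Figure D1:**
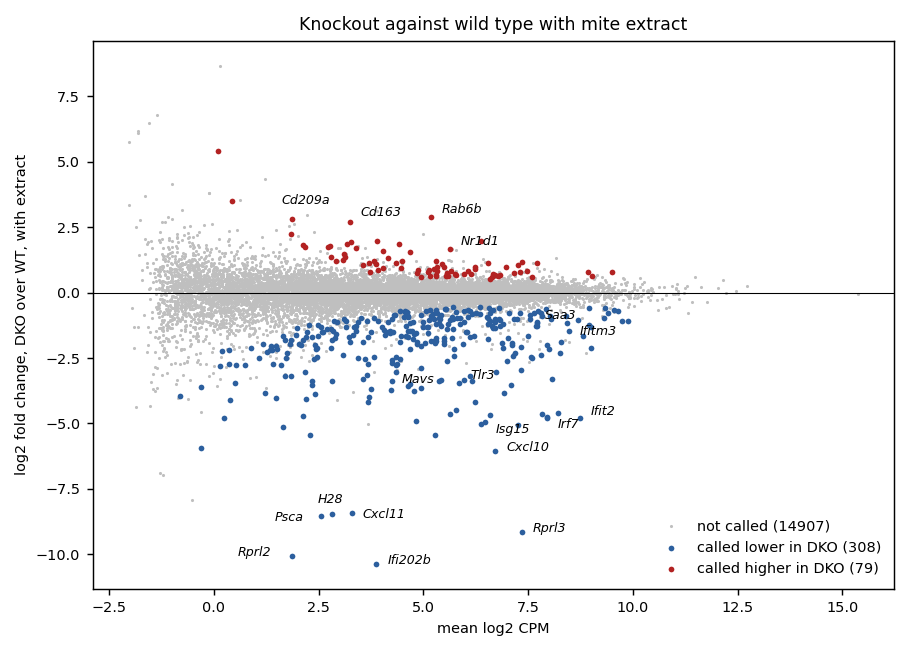
Log2 fold change of DKO over WT with mite extract (vertical axis) against the mean log2 CPM (horizontal axis) for the 15294 genes tested, 1 point per gene; blue marks the 308 genes called lower, red the 79 called higher, grey the rest. Of the labelled genes, Isg15, Ifit2, Irf7 and Cxcl10 lie from -4.76 (Irf7) to -6.06 (Cxcl10). Of the labelled genes at the bottom, Ifi202b, Rprl2, Psca, H28 and Cxcl11 had 3 reads or fewer in DKO, so their fitted fold change is no measure of size.

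Interferon-stimulated genes made up the clearest group among the genes that fell. Of 50 genes listed as type I interferon-stimulated, 48 were tested and 42 were called lower in DKO, none higher, beside 2.01% of all genes called lower. All 48 were below WT in both DKO libraries, with no overlap between genotypes, and their median log2 fold change was -2.78. With PBS the same genes had a median log2 ratio of DKO to WT of 0.16. The genotypes thus stood apart with extract, and the single PBS libraries did not by this measure. Their summed level was 3612 and 2149 CPM in DKO, 20206 and 15448 CPM in WT, 2139 CPM in DKO with PBS and 1850 CPM in WT with PBS. With DESeq2, 46 of the 48 were called lower. In the fits without DKO replicate 5 or DKO replicate 6 all 48 were, and without WT replicate 3 or WT replicate 4 the counts were 5 and 8.

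The secreted and intracellular ubiquitin-like protein Isg15 (chromosome 4, 155573533 to 155574927, minus strand) had 10.5 and 6.0 CPM in DKO and 289 and 220 CPM in WT, with 3.85 CPM in DKO with PBS and 2.96 CPM in WT with PBS. Both DKO libraries lay above the PBS libraries and far below both WT libraries. The mean was 8.23 ± 3.17 CPM in DKO and 254 ± 48.7 CPM in WT (SD, n = 2 each), a log2 fold change of -4.95 ± 0.30 (adjusted p = 0.00621). The IFIT genes, whose proteins bind viral RNA, were far below WT in DKO as well. Ifit1 had 29.3 and 22.6 CPM in DKO and 765 and 534 CPM in WT, with 13.5 CPM in DKO with PBS and 11.3 CPM in WT with PBS. Ifit2 had 44.9 and 40.3 CPM in DKO and 1424 and 949 CPM in WT, with 41.6 CPM in DKO with PBS and 41.5 CPM in WT with PBS. In Ifit2 the 2 DKO libraries thus stood at the PBS level. The log2 fold change was -4.65 ± 0.24 for Ifit1 and -4.80 ± 0.24 for Ifit2, and that of Ifit3 was -4.60 ± 0.23 (adjusted p = 0.00468 for each).

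Antiviral effectors with other modes of action were lower too. Mx1, a GTPase that blocks influenza virus in mice with an intact gene, had 6.27 and 8.34 CPM in DKO and 294 and 180 CPM in WT. Rsad2, which encodes viperin, had 17.7 and 32.7 CPM in DKO and 862 and 548 CPM in WT. Oasl1, a member of the oligoadenylate synthetase family, had 2.92 and 2.2 CPM in DKO and 136 and 86.5 CPM in WT. The genotypes were apart in all of these, with log2 fold changes of -5.02 ± 0.31 for Mx1 (adjusted p = 0.00621), -4.80 ± 0.39 for Rsad2 (0.0116) and -5.44 ± 0.30 for Oasl1 (0.00468). Oas1g, which makes the messenger that switches on RNase L, had 0.266 and 0.35 CPM in DKO and 14.7 and 12.8 CPM in WT, a log2 fold change of -5.45 ± 0.27 (adjusted p = 0.00468). Ifi44 spread more between the DKO libraries, with 21.5 and 4.6 CPM, against 488 and 386 CPM in WT, and its log2 fold change was -5.07 ± 0.71 (adjusted p = 0.0344). Members of the Oas1 family are near-identical copies, and how reads were split among them is uncertain.

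The 6 genes of this list that were not called, Gbp3, Rtp4, Ifi27l2a, Dtx3l and Uba7 among them, were also below WT in both DKO libraries, and these names are given after their values were seen. In each of the 6 DKO replicate 5 stood well above DKO replicate 6. Rtp4, a receptor-transporting protein induced by interferon, had 36.7 and 12.4 CPM in DKO and 169 and 143 CPM in WT. It had 12.7 CPM in DKO with PBS and 12.5 CPM in WT with PBS. Its log2 fold change with extract was -2.67 ± 0.48 (adjusted p = 0.0621).

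The promoters of 5 of the genes that fell are shown because each holds the core of the interferon-stimulated response element. They are the 5 genes with the smallest p among the type I interferon-stimulated genes and the largest falls whose promoter entry matched. Each sequence is the 250 bases before the gene's start in RefSeq (GRCm38.p6), 5′ to 3′ on the gene's strand, and the capitals mark matches to the core of the interferon-stimulated response element, TTTC repeated after any 2 bases or, on the other strand, GAAA repeated after any 2 bases, with overlapping matches merged. The regions are chr5:120887614-120887863 (minus strand) for Oas1g, chr19:34583279-34583528 (plus) for Ifit3, chr19:34640639-34640888 (plus) for Ifit1, chr4:156200819-156201068 (minus) for Isg15 and chr5:120907526-120907775 (minus) for Oas1a.
Oas1g: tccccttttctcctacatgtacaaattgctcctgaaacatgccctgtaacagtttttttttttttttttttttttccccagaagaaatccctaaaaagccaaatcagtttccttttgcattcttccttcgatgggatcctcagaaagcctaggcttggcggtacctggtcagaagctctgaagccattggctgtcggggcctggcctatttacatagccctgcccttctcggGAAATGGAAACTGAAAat
Ifit3: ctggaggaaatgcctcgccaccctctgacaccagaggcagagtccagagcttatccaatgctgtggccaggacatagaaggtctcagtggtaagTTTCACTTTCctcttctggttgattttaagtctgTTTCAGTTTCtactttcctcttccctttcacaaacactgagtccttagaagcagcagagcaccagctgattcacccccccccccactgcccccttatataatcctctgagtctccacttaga
Ifit1: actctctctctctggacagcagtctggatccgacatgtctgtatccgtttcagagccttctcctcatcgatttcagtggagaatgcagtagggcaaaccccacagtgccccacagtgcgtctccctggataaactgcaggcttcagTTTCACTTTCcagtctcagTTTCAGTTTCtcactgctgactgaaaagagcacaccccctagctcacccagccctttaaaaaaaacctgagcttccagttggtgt
Isg15: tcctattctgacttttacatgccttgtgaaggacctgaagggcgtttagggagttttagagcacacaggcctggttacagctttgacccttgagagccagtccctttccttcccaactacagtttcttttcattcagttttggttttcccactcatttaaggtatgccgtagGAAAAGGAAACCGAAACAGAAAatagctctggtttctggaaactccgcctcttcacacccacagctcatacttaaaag
Oas1a: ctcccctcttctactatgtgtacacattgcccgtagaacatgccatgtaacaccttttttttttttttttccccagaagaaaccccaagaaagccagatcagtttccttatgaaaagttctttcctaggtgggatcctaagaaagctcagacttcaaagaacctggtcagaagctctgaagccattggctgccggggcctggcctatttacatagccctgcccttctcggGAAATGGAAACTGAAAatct
Isg15 holds 3 overlapping matches, and each of the other 4 holds 2. The match nearest to the start of the gene begins 12 bases before it in Oas1g, 14 in Oas1a, 66 in Isg15, 85 in Ifit1 and 122 in Ifit3. Over all 32851 promoters of the RefSeq table, 2.98% hold the motif in such a window. Shares for the genes called lower or higher are not reported here. An entry was found for 238 of the 308 lower genes (77.3%), 77.2% of the higher genes and 77.7% of all genes tested. A match describes the letters of the window and does not show that a factor binds there.

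Among the sensors of foreign RNA, 9 of 22 listed genes fell and none rose, beside 2.01% of all genes called lower. The targeted genes Tlr3 and Mavs are among the 9. Ddx58, Ifih1, Eif2ak2, Dhx58 and Zbp1 were already counted with the type I interferon-stimulated genes. The median log2 fold change of the list was -0.90, with a median log2 ratio of 0.19 with PBS. Ddx58, which encodes RIG-I, had 108 and 82.7 CPM in DKO and 540 and 444 CPM in WT, with 87.2 CPM in DKO with PBS and 83.0 CPM in WT with PBS. The helicase gene Ifih1, for MDA5, had 90.0 and 61.4 CPM in DKO and 490 and 374 CPM in WT. The DKO libraries lay near the PBS level in both helicases, with log2 fold changes of -2.37 ± 0.18 for Ddx58 (adjusted p = 0.00988) and -2.51 ± 0.23 for Ifih1 (0.0147). Eif2ak2, the RNA-activated kinase PKR, fell as well (-2.31 ± 0.19, adjusted p = 0.0117), as did Dhx58, Zbp1, Adar and Trim25. Ticam1, the adaptor of TLR3, had 24.4 and 26.9 CPM in DKO and 26.8 and 23.2 CPM in WT (log2 fold change 0.03 ± 0.12, adjusted p = 0.922). Irf3 had 56 and 58.6 CPM in DKO and 49.1 and 52.7 CPM in WT (0.17 ± 0.09, adjusted p = 0.402). Ticam1 and Irf3, which relay the signal and were given here after their values were seen, thus did not pass the test. With DKO replicate 5, DKO replicate 6, WT replicate 3 or WT replicate 4 left out, 13, 16, 0 and 1 members were called lower.

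Of 7 DNA sensors and related genes tested, 3 fell, beside 2.01% of all genes called lower. They were Trex1, a nuclease that clears cytosolic DNA, Ifi204, a DNA-binding protein of the Ifi200 family, and Tlr9, the receptor for unmethylated DNA. Ifi204 had 8.19 and 5.1 CPM in DKO and 101 and 62.3 CPM in WT (log2 fold change -3.63 ± 0.33, adjusted p = 0.0144). Leaving out DKO replicate 6 gave 6 lower members, and leaving out WT replicate 3 or WT replicate 4 gave 0. In the list of interferon receptors, kinases and transcription factors, 5 of 22 fell, which were Usp18, Irf7, Socs1, Irf8 and Stat2. The median log2 fold change was -0.32. Usp18, Irf7 and Stat2 were already counted with the type I interferon-stimulated genes, and Socs1 and Irf8 also stand in the interferon-gamma list. Irf7, the factor that amplifies the interferon response, had 34.8 and 16.6 CPM in DKO and 769 and 628 CPM in WT, with 14.4 CPM in DKO with PBS and 11.1 CPM in WT with PBS. Its 2 DKO libraries lay far below both WT libraries (log2 fold change -4.76 ± 0.38, adjusted p = 0.0116). The receptor gene Ifnar1, chosen after its values were seen, had 119 and 142 CPM in DKO and 147 and 145 CPM in WT (-0.16 ± 0.11, adjusted p = 0.525). In this list 11, 13, 0 and 0 members were called lower without DKO replicate 5, DKO replicate 6, WT replicate 3 and WT replicate 4.

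Transcripts of the interferons themselves were at the limit of detection. Of 19 interferon genes in the tables, 14 had no read in any of the 4 libraries with extract. Type I and type III interferon genes together had 0 and 0 reads in DKO and 9 and 2 reads in WT, with 0 reads in each PBS library. A count of 0 allows up to 3 reads in a library, so a difference of this size was not detectable for single genes at this depth. Ifnb1 had 2 reads, in WT replicate 3, and Ifna4 had none in any library. Il28b, a type III interferon, had 3 reads, all in WT replicate 3. Ifng, the type II interferon made by lymphocytes, had 1 and 4 reads in DKO and 21 and 7 reads in WT, with 2 reads in each PBS library. The genotypes did not overlap in Ifng, but its log2 fold change of -2.47 ± 0.82 did not pass the test (adjusted p = 0.207).

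Chemokines that interferons induce, and that draw T cells, NK cells and monocytes, were lower in DKO. Of 10 tested, 6 fell, and all 10 were below WT without overlap, with a median log2 fold change of -3.49. With PBS the median log2 ratio was -0.04. Cxcl10 (chromosome 5, 92775664 to 92777915, minus strand) had 2.76 and 6.45 CPM in DKO and 411 and 206 CPM in WT, with 1.51 CPM in DKO with PBS and 1.71 CPM in WT with PBS. Cxcl9, which shares the receptor CXCR3 with Cxcl10 and Cxcl11, had 1.06 and 4.3 CPM in DKO and 86.7 and 74.4 CPM in WT. Ccl5, an attractant of T cells, had 6.01 and 5.55 CPM in DKO and 50.6 and 44.0 CPM in WT, with 12 CPM in DKO with PBS and 3.24 CPM in WT with PBS. In all of these both WT libraries stood above both DKO libraries, and in Ccl5 the DKO libraries lay between the PBS libraries. The log2 fold changes were -6.06 ± 0.54 for Cxcl10 (adjusted p = 0.0136), -4.89 ± 0.51 for Cxcl9 (0.0188) and -3.03 ± 0.14 for Ccl5 (0.00468). Cxcl11 had 3 reads in the DKO libraries together and 1093 in the WT libraries together, a 383-fold lower level with a 95% counting interval of 131 to 1860. Ccl12 and the B cell attractant Cxcl13 also fell. The monocyte attractant Ccl2 had 0.478 and 3.25 CPM in DKO and 35.4 and 16.9 CPM in WT, and did not pass the test (log2 fold change -3.79 ± 0.75, adjusted p = 0.0767). All 10 were called lower without DKO replicate 5 or DKO replicate 6, without WT replicate 3 none and without WT replicate 4, 1.

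**Figure D2:**
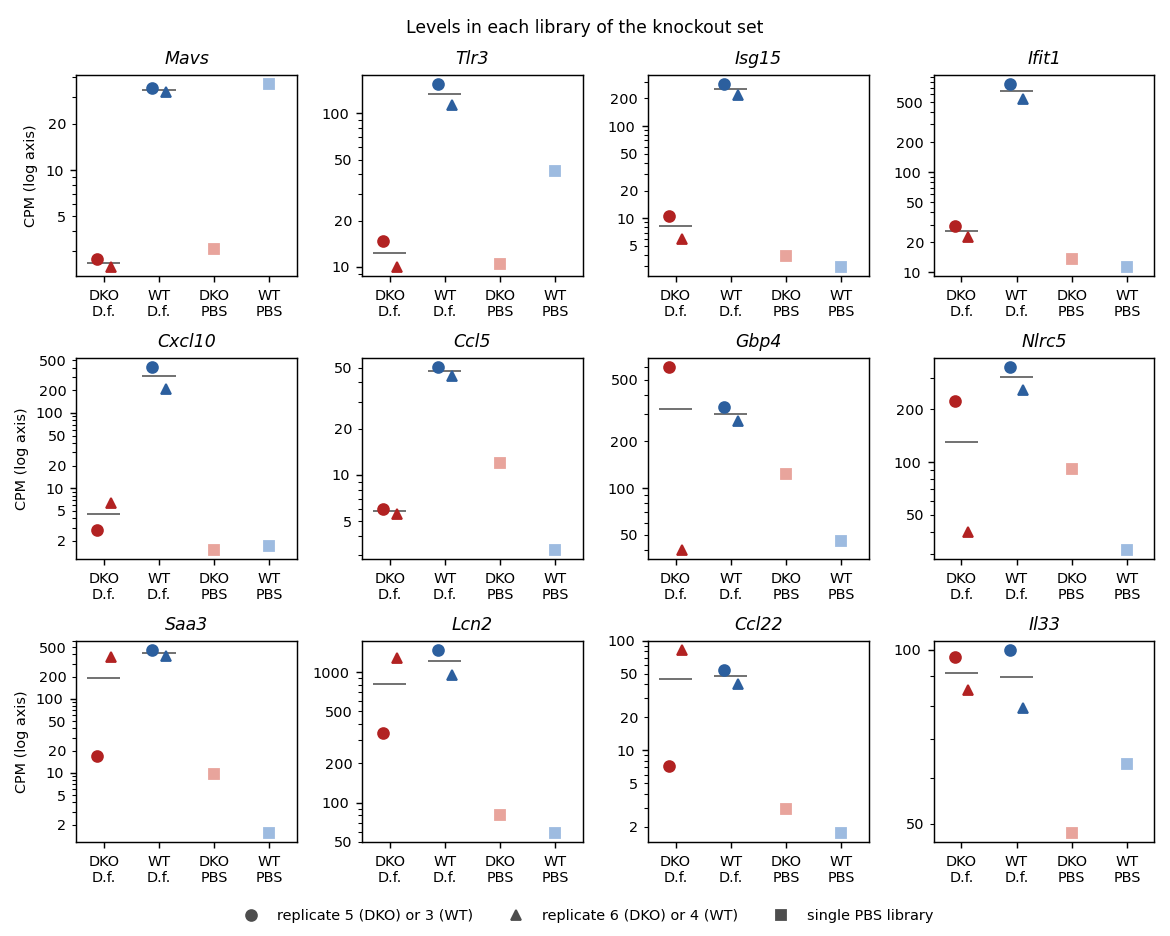
Level of 12 genes in each library of the knockout set, in CPM on log axes that differ between panels; red is DKO, blue WT, pale squares the single PBS libraries, and the grey line is the mean of 2 replicates. In Isg15, Ifit1, Cxcl10 and Ccl5 both DKO libraries lie far below both WT libraries, while in Gbp4, Nlrc5, Saa3, Lcn2 and Ccl22 the 2 DKO libraries lie apart from each other, as in Saa3 with 17 and 366 CPM.

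Genes associated with interferon gamma behaved differently in the 2 DKO libraries. Of 30 tested, 6 fell (Cxcl9, Fcgr1, Nos2, Socs1, Irf8 and Gbp11), none rose, and the median log2 fold change was -1.11. Taken against the mean of WT, the median log2 ratio was -0.58 in DKO replicate 5 and -2.71 in DKO replicate 6, and 26 of the 30 were higher in replicate 5 than in replicate 6. With PBS the DKO library was above WT in this list, with a median log2 ratio of 0.66. When DKO replicate 5 was left out, 29 were called lower. Without DKO replicate 6, 16 were called lower and 3 higher, and none was called without WT replicate 3 or WT replicate 4.

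Guanylate-binding proteins and immunity-related GTPases, which attack vacuoles of intracellular microbes, are examples, and the genes named next were chosen after their values were seen. Gbp4 had 605 and 40.0 CPM in DKO and 335 and 269 CPM in WT, with 124 CPM in DKO with PBS and 45.6 CPM in WT with PBS. DKO replicate 5 thus lay above both WT libraries and DKO replicate 6 below both, and the log2 fold change was 0.09 ± 1.05 (adjusted p = 0.974). Gbp2 had 174 and 44.5 CPM in DKO and 582 and 401 CPM in WT. Iigp1 had 368 and 55.3 CPM in DKO and 939 and 628 CPM in WT. In Gbp2 and Iigp1 both DKO libraries were below WT but by unlike amounts, and neither passed the test (log2 fold change -2.17 ± 0.62, adjusted p = 0.156, for Gbp2 and -1.89 ± 0.82, adjusted p = 0.308, for Iigp1). Ciita, the switch of MHC class II transcription, had 174 and 46.1 CPM in DKO and 76.1 and 70.4 CPM in WT, with 78.7 CPM in DKO with PBS and 43.8 CPM in WT with PBS. Its log2 fold change was 0.58 ± 0.57 (adjusted p = 0.66) with both DKO libraries and -0.67 ± 0.11 without DKO replicate 5.

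Genes of antigen presentation on MHC class I were lower in DKO. Of 18 tested, 8 fell (Psme1, Psme2, Tapbp, Tapbpl, Psmb8, Psmb10, H2-D1 and B2m), and all 18 had a negative log2 fold change, with a median of -1.11. Psme1, an activator subunit of the proteasome, had 75.5 and 67.7 CPM in DKO and 181 and 169 CPM in WT, with 56.7 CPM in DKO with PBS and 47.9 CPM in WT with PBS. B2m, the light chain of every class I molecule, had 750 and 540 CPM in DKO and 1431 and 1332 CPM in WT, with 625 CPM in DKO with PBS and 435 CPM in WT with PBS. No DKO library reached the level of a WT library in these, and the log2 fold changes were -1.29 ± 0.10 for Psme1 (adjusted p = 0.0116) and -1.10 ± 0.17 for B2m (0.0451). All 18 were higher in DKO replicate 5 than in DKO replicate 6. Nlrc5, the switch of MHC class I transcription (chosen after its values were seen), had 221 and 40.2 CPM in DKO and 348 and 257 CPM in WT (log2 fold change -1.21 ± 0.72, adjusted p = 0.452). Without DKO replicate 5, DKO replicate 6, WT replicate 3 and WT replicate 4, 18, 15, 0 and 0 were called lower. Of 12 genes of MHC class II presentation, none was called in edgeR (1 at an unadjusted p below 0.05, and 1 lower with DESeq2), and their median log2 fold change was 0.05. Cd74, the invariant chain, had 1023 and 1032 CPM in DKO and 1229 and 1116 CPM in WT (-0.19 ± 0.10, adjusted p = 0.373). Leaving out DKO replicate 5 gave 2 lower of the 12, and leaving out DKO replicate 6 gave 1 lower and 2 higher.

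**Figure D3:**
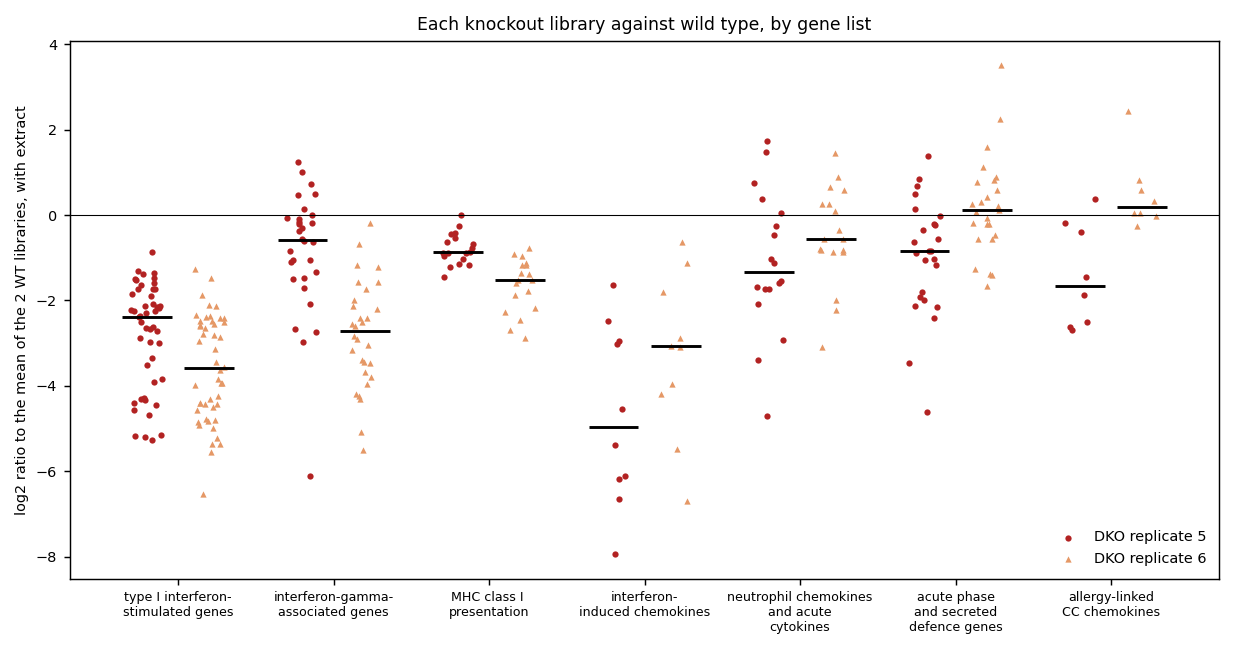
Log2 ratio of each DKO library to the mean of the 2 WT libraries, all with extract, for the tested members of 7 gene lists; each point is a gene, circles are DKO replicate 5, triangles DKO replicate 6, and bars are medians. The medians of the interferon-gamma-associated genes are -0.58 and -2.71 in replicates 5 and 6, and those of the acute phase genes -0.85 and 0.11, so the 2 libraries differ in opposite directions between these lists.

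Of 18 neutrophil-attracting chemokines and acute cytokines tested, Cxcl3 fell and Ppbp rose, and the median log2 fold change was -0.91. In this list 10 genes were below WT without overlap, 10 had an unadjusted p below 0.05, and DESeq2 called 3 lower and 1 higher. Over all genes tested the shares were 25.6%, 18.2%, 3.45% and 1.31%, in that order. Cxcl3, a ligand of the neutrophil receptor CXCR2, had 2.82 and 3.5 CPM in DKO and 36.9 and 25.5 CPM in WT, with 0.315 CPM in DKO with PBS and 0.455 CPM in WT with PBS. Both WT libraries lay far above both DKO libraries (log2 fold change -3.30 ± 0.25, adjusted p = 0.0105). Cxcl1 had 2.07 and 4.25 CPM in DKO and 7.74 and 5.1 CPM in WT (-1.02 ± 0.40, adjusted p = 0.268). The acute cytokine Tnf had 2.76 and 5.15 CPM in DKO and 11.6 and 7.62 CPM in WT (-1.28 ± 0.37, adjusted p = 0.157). Il6 had 0.478 and 0.999 CPM in DKO and 2.76 and 1.2 CPM in WT, with 0.126 CPM in DKO with PBS and 2.67 CPM in WT with PBS (-1.42 ± 0.57, adjusted p = 0.273). Cxcl1, Tnf and Il6 did not overlap between genotypes and did not pass the test. Il1b had 7.02 and 32.2 CPM in DKO and 37.1 and 24.7 CPM in WT, with overlap (-0.65 ± 0.65, adjusted p = 0.667). In this list 7, 10, 0 and 0 members were called lower, and 1, 2, 0 and 0 higher, without DKO replicate 5, DKO replicate 6, WT replicate 3 and WT replicate 4.

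Acute phase and secreted defence genes were spread widely between the DKO libraries. Of 25 tested, Saa1 fell (3.93 and 4.75 CPM in DKO and 15.7 and 14.7 CPM in WT, log2 fold change -1.81 ± 0.18, adjusted p = 0.0172). Saa1 and Saa2 are near-identical copies, and the split of reads between them is uncertain. Saa3, the form made in the lung and by macrophages, had 17 and 366 CPM in DKO and 460 and 383 CPM in WT, with 9.77 CPM in DKO with PBS and 1.54 CPM in WT with PBS. DKO replicate 6 thus came close to the lower WT library, while replicate 5 lay far below WT and above both PBS libraries (-1.14 ± 1.16, adjusted p = 0.675). Lcn2, an iron-withholding protein, had 342 and 1281 CPM in DKO and 1480 and 956 CPM in WT, and was named after its values were seen. The median log2 ratio to WT was -0.85 in DKO replicate 5 and 0.11 in DKO replicate 6, and 3 of the 25 were higher in replicate 5. The fit without DKO replicate 5 called 6 lower and 8 higher, and without DKO replicate 6, 14 were called lower. Leaving out WT replicate 3 or WT replicate 4 gave 0.

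Among genes linked to allergic inflammation, edgeR called the receptor gene Il1rl1. Il33, an alarmin stored in alveolar type 2 cells of mice, had 97.0 and 85.1 CPM in DKO and 100 and 79.4 CPM in WT, with 48.2 CPM in DKO with PBS and 63.4 CPM in WT with PBS. The genotypes overlapped fully in Il33 (log2 fold change 0.02 ± 0.14, adjusted p = 0.962). Tslp had 4.04 and 2.75 CPM in DKO and 4.04 and 4.02 CPM in WT (-0.25 ± 0.26, adjusted p = 0.684). Il13 was at 0 in 5 of the 6 libraries and had 0.15 CPM in DKO replicate 6. Of 16 alarmins, type 2 cytokines and receptors tested, 1 rose: Il1rl1, the receptor of Il33. It had 10.8 and 8.74 CPM in DKO and 3.21 and 2.46 CPM in WT, with 8.01 CPM in DKO with PBS and 6.72 CPM in WT with PBS. Both WT libraries with extract lay below all other libraries of the set (log2 fold change 1.78 ± 0.22, adjusted p = 0.0271). At an unadjusted p below 0.05 there were 6 of the 16, beside 18.2% of all genes tested. DESeq2 called 1 lower and 2 higher. Of the 16, 6 were called higher and 2 lower without DKO replicate 5, 3 higher and 4 lower without DKO replicate 6, and none without either WT library. None of the 8 allergy-linked CC chemokines tested was called in edgeR, 0 of them at an unadjusted p below 0.05, or in DESeq2. All 8 were lower in DKO replicate 5 than in DKO replicate 6, with a median log2 ratio to WT of -1.66 in replicate 5 and 0.18 in replicate 6. Ccl11, the eosinophil attractant eotaxin, had 1.86 and 8.89 CPM in DKO and 9.32 and 5.4 CPM in WT. Ccl17, a ligand of CCR4, had 2.87 and 21.1 CPM in DKO and 5.13 and 2.82 CPM in WT. The eosinophil attractant Ccl24 had 0.0532 and 0.849 CPM in DKO and 2.86 and 0.18 CPM in WT. Genotypes overlapped in all of these, with adjusted p of 0.795 for Ccl11, 0.42 for Ccl17 and 0.556 for Ccl24. Without DKO replicate 6, 5 of the 8 were called lower, and without DKO replicate 5, 2 were called higher. Muc5ac, the goblet cell mucin, had 0.159 and 1.15 CPM in DKO and 0.247 and 0.06 CPM in WT (adjusted p = 0.424). Ccl20, an attractant of dendritic cells, had 1.86 and 2.15 CPM in DKO and 1.43 and 1.38 CPM in WT (adjusted p = 0.417).

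In the list of the interleukin 1 family and the inflammasome, Il1rl1 rose and Il18bp fell among 19 tested. Il18bp, which neutralizes interleukin 18 and is induced by interferon, had 29.0 and 16.0 CPM in DKO and 91.4 and 70.1 CPM in WT, with 12.2 CPM in DKO with PBS and 9.62 CPM in WT with PBS. No DKO value came near a WT value (log2 fold change -1.85 ± 0.30, adjusted p = 0.0484). Of 22 feedback genes of NF-kB and immediate early genes, Tnfaip3 fell, with 41.1 and 47.6 CPM in DKO and 91.9 and 81.8 CPM in WT (-0.97 ± 0.12, adjusted p = 0.0259). The median log2 fold change was -0.31 in that list, and 20 of the 22 were negative. With DKO replicate 5 or DKO replicate 6 left out, 8 and 11 genes of the interleukin 1 list and 7 and 13 genes of the NF-kB list were called lower. In the same order 3 and 2 genes of the interleukin 1 list and 1 and 0 of the NF-kB list were called higher, and without either WT library none was called.

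**Figure D4:**
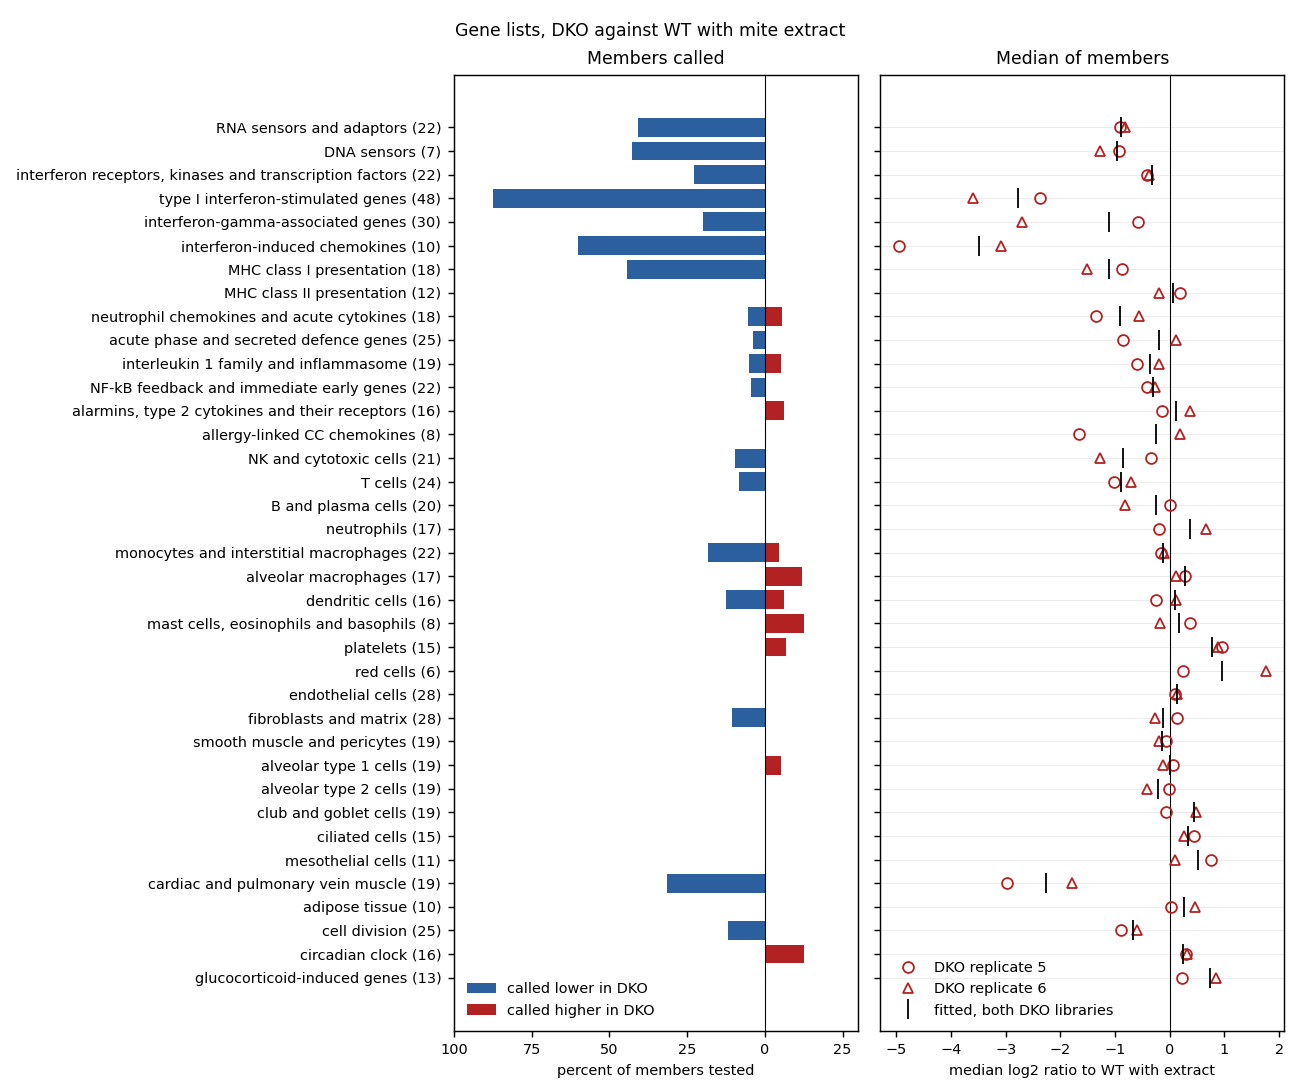
Left, percent of tested members of each gene list called lower (blue, to the left) or higher (red, to the right) in DKO against WT with extract, with the number tested in brackets. Right, the median log2 ratio to WT of each DKO library (circle for replicate 5, triangle for replicate 6) and of the fit on both (line); 42 of 48 type I interferon-stimulated genes are called lower, with medians of -2.37 and -3.59 in the 2 libraries.

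Markers of immune cells were compared next, where fewer cells of a type and less RNA per cell cannot be told apart in whole lung. Of 21 markers of NK and cytotoxic cells, Serpinb9 and Il2rb fell, with a median log2 fold change of -0.86, while with PBS the DKO library was above WT by a median log2 ratio of 1.42. Il2rb, a receptor chain for interleukins 2 and 15, had 9.89 and 7.89 CPM in DKO and 18 and 19.5 CPM in WT, with 13.7 CPM in DKO with PBS and 5.92 CPM in WT with PBS. Of 24 T cell markers, 2 fell and the median was -0.90. The signalling kinase Lck, which fell, had 6.38 and 5.9 CPM in DKO and 13.5 and 12.7 CPM in WT (log2 fold change -1.10 ± 0.15, adjusted p = 0.0341). The genotypes stood apart in both Il2rb and Lck. Counts without single libraries at the end of this paragraph belong beside the shares of all genes given with the whole transcriptome. No B or plasma cell marker of 20 and no neutrophil marker of 17 was called in edgeR or DESeq2, with 1 of each list at an unadjusted p below 0.05 and medians of -0.25 and 0.37. With DKO replicate 5 left out 13 NK, 12 T and 12 B cell markers were called lower and 9 neutrophil markers higher. With DKO replicate 6 left out 7 NK, 16 T, 3 B cell and 7 neutrophil markers were called lower, and with either WT library left out none was.

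Myeloid markers moved in both directions. Of 22 markers of monocytes and interstitial macrophages, Fcgr1, Ly6c2, Ms4a6c and Ms4a4c fell and F13a1 rose. The median log2 fold change of the 22 was -0.13. Fcgr1, the high-affinity receptor for IgG that also stands in the interferon-gamma list, had 4.94 and 6.89 CPM in DKO and 39.2 and 26.3 CPM in WT, with 3.91 CPM in DKO with PBS and 2.28 CPM in WT with PBS. Ly6c2, a surface protein of inflammatory monocytes whose family has near-identical copies, had 6.06 and 3.35 CPM in DKO and 33.9 and 27.5 CPM in WT. F13a1, a chain of coagulation factor XIII, had 30.3 and 33.1 CPM in DKO and 15.1 and 11.9 CPM in WT. Genotypes were apart in each, and the log2 fold changes were -2.47 ± 0.27 for Fcgr1 (adjusted p = 0.0205), -2.71 ± 0.30 for Ly6c2 (0.0207) and 1.22 ± 0.15 for F13a1 (0.0261). Of 16 dendritic cell markers, Siglech and Ccr9 fell and Cd209a rose, with a median log2 fold change of 0.09. Siglech, a surface protein of plasmacytoid dendritic cells in mice, had 2.34 and 1.7 CPM in DKO and 14.1 and 8.94 CPM in WT, with 1.77 CPM in DKO with PBS and 1.42 CPM in WT with PBS. Its DKO libraries stood near the PBS libraries (log2 fold change -2.52 ± 0.32, adjusted p = 0.0272). Of 17 alveolar macrophage markers, with a median log2 fold change of 0.28, 2 rose: the mannose receptor Mrc1 and Siglec5. Mrc1 had 165 and 166 CPM in DKO and 80.1 and 87.0 CPM in WT, with 122 CPM in DKO with PBS and 127 CPM in WT with PBS (0.99 ± 0.09, adjusted p = 0.015). Both WT libraries with extract were below the PBS libraries in Mrc1. Some of the counts without single libraries that follow lie near or below the shares of all genes given with the whole transcriptome. In the lists of monocytes, dendritic cells and alveolar macrophages, 7, 2 and 1 members were called lower and 6, 4 and 7 higher without DKO replicate 5, and 9, 6 and 2 lower and 1, 1 and 8 higher without DKO replicate 6. None was called lower without either WT library.

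Several lists of tissue markers differed between the single PBS libraries of the genotypes, heart muscle by the widest median. All 19 markers of heart and pulmonary vein muscle tested were negative, with a median log2 fold change of -2.27, and 6 were called lower (Ckm, Pln, Actn2, Ryr2, Myl4 and Tnnt2). With PBS the median log2 ratio was -2.86. The summed level of the 22 listed markers was 225 and 392 CPM in DKO, 1054 and 1570 CPM in WT, 307 CPM in DKO with PBS and 2037 CPM in WT with PBS. These markers were thus lower in the DKO libraries than in the WT libraries with either treatment, and their part in the other results was not tested. With PBS, platelet genes had a median log2 ratio of 0.99 (15 of 15 higher in DKO), ciliated cell markers -0.74 (13 of 15 lower) and adipose markers -1.12 (9 of 10 lower), against medians with extract of 0.78, 0.34 and 0.26 in that order. The ciliated and adipose medians thus had opposite signs with PBS and with extract. Values with PBS rest on 1 library per genotype, so a genotype difference cannot be told from a difference between libraries. Of the 19 heart and pulmonary vein muscle markers tested, DESeq2 called 18 lower. Of 28 fibroblast and matrix genes, Col5a1, Mfap4 and Col1a1 fell, with Col1a1 at 694 and 580 CPM in DKO and 1063 and 1042 CPM in WT (-0.72 ± 0.12, adjusted p = 0.0494). Of 19 alveolar type 1 markers, Cyp2b10 rose, with 272 and 299 CPM in DKO and 125 and 134 CPM in WT (1.14 ± 0.10, adjusted p = 0.0138). Cldn18, a lung claudin, fell by a log2 fold change of -0.59 ± 0.10 (adjusted p = 0.0494). No marker of endothelial cells (28 tested), smooth muscle and pericytes (19), alveolar type 2 cells (19), club and goblet cells (19), ciliated cells (15) or mesothelium (11) was called in edgeR. At an unadjusted p below 0.05 there were 8, 7, 5, 3, 7 and 5 of them, in that order, beside 18.2% of all genes tested. DESeq2 called 3 endothelial, 2 alveolar type 2, 2 club and goblet and 1 ciliated cell marker among these. Counts without single libraries follow, to be read beside the shares of all genes called in the same fits, given with the whole transcriptome. Several of them lie near or below those shares and are no result about a list. In the same order of lists, 3, 6, 11, 1, 1 and 1 markers were called lower and 9, 0, 0, 8, 2 and 2 higher when DKO replicate 5 was left out. With DKO replicate 6 left out the counts were 1, 2, 4, 3, 0 and 0 lower and 7, 2, 2, 5, 6 and 7 higher, and with either WT library left out none was called. Of 15 platelet genes, 14 had a positive log2 fold change and 1 rose, the chemokine precursor Ppbp. It had 12.3 and 12 CPM in DKO and 4.39 and 4.26 CPM in WT, with 13.2 CPM in DKO with PBS and 4.67 CPM in WT with PBS, so the single PBS libraries differed by about as much. Of the platelet genes 5 were called higher without DKO replicate 5 and 6 without DKO replicate 6, and none without either WT library. Of the fibroblast genes 12 were called lower and 1 higher without DKO replicate 5, and 8 lower and 10 higher without DKO replicate 6. Of the alveolar type 1 markers 3 were lower and 2 higher without DKO replicate 5, and 2 lower and 3 higher without DKO replicate 6.

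The largest falls outside the interferon lists included genes that were nearly silent in DKO. Rprl3, an RNA related to the RNA of ribonuclease P, had 0.532 and 0.6 CPM in DKO and 311 and 339 CPM in WT, with 0.63 CPM in DKO with PBS and 329 CPM in WT with PBS. Its log2 fold change of -9.15 ± 0.15 had the smallest adjusted p of all genes (8.9e-05), and it differed as much between the PBS libraries. Rprl2, of the same family of near-identical copies, had no read in DKO and 269 reads in WT, at least 47.7-fold lower when 3 counts are allowed in each DKO library. Psca, a surface protein first described in prostate (chromosome 15, 74545269 to 74547493), had 1 read in DKO and 445 reads in WT, 468-fold lower with a counting interval of 83.5 to 18500. It also was at 0 in DKO with PBS and at 10.6 CPM in WT with PBS. Rprl2, Rprl3 and Psca thus separated the genotypes with extract and the single PBS libraries as well.

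Ifi202b and H28 were also near 0 in DKO. In the single PBS libraries both had few reads, fewer in DKO, at levels far below those of WT with extract. Ifi202b (chromosome 1, 175892700 to 175912975, minus strand), an interferon-inducible gene of the Ifi200 family with near-identical relatives, had 1 read in DKO and 1626 reads in WT, 1710-fold lower with a counting interval of 306 to 67500. With PBS it was at 0.126 CPM in DKO and 1.48 CPM in WT, a log2 ratio of -2.75. H28 (chromosome 3, 151422605 to 151425870, minus strand), a minor histocompatibility antigen gene, had 2 reads in DKO and 766 in WT, 402-fold lower with an interval of 111 to 3330. With PBS it had 0 CPM in DKO and 0.228 CPM in WT. A count of 0 leaves room for up to 0.189 CPM, so these single libraries do not show a difference in H28. Apol9a, an apolipoprotein L gene of mice, had 0.372 and 0.0999 CPM in DKO and 10.8 and 6.12 CPM in WT (log2 fold change -5.15 ± 0.57, adjusted p = 0.0217). All of these intervals cover counting error only.

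Genes that were higher in DKO were fewer. Rab6b (chromosome 9, 103014404 to 103087600, plus strand), a GTPase of Golgi traffic known from neurons, had 61.0 and 45.2 CPM in DKO and 7.74 and 6.54 CPM in WT, with 80.0 CPM in DKO with PBS and 15.7 CPM in WT with PBS. Its log2 fold change was 2.89 ± 0.19 (adjusted p = 0.00757), and the PBS libraries differed the same way. Slc6a2, the noradrenaline transporter, had 96.3 and 193 CPM in DKO and 36.9 and 36.4 CPM in WT, with 102 CPM in DKO with PBS and 34.9 CPM in WT with PBS (1.98 ± 0.33, adjusted p = 0.0494). Camk2b and Dpysl5 were also at least 2-fold higher in DKO with PBS. Cd163 differed by less than that with PBS. Cd163, the macrophage receptor that clears haemoglobin, had 12.1 and 21.6 CPM in DKO and 2.61 and 2.52 CPM in WT, with 8.39 CPM in DKO with PBS and 8.88 CPM in WT with PBS. In Cd163 the WT libraries with extract were the lowest of the set, and the log2 fold change was 2.71 ± 0.33 (adjusted p = 0.0259). Cd209a, a lectin of monocyte-derived dendritic cells in mice, had 8.51 and 4.9 CPM in DKO and 1.08 and 0.78 CPM in WT, with 1.39 CPM in DKO with PBS and 4.38 CPM in WT with PBS (2.82 ± 0.39, adjusted p = 0.0336). Further genes among the 15 largest rises were Fbxo2, Abca6, Galntl2, Clec12b, Klrb1b and Cd300lg, beside Il1rl1 and the clock gene Nr1d1, with log2 fold changes from 1.67 to 2.25. None of the rises was called without WT replicate 3 or WT replicate 4.

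The PBS libraries place the calls against the baseline of each genotype, with no replicate check and no test. Between them, 512 genes (3.35%) were at least 2-fold lower in DKO and 334 (2.18%) at least 2-fold higher. Of the 308 genes called lower with extract, 52 were at least 2-fold lower in DKO also with PBS, 9 were at least 2-fold higher and 247 lay within 2-fold. Of the 79 genes called higher, 8 were at least 2-fold higher with PBS as well, 1 was at least 2-fold lower and 70 lay within 2-fold. Mavs, Tlr3, Psca, Rprl2, Rprl3 and cardiac genes such as Myl4 are among the 52, and Rab6b and Slc6a2 are among the 8. Ifi202b, H28 and the antiviral gene Oas1g are among the 52 as well, with Oas1g at 0.063 CPM in DKO with PBS and 0.512 CPM in WT with PBS. The place of H28 among the 52 rests on few reads near the floor.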

How the data were processed

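Per the labels' protocols, total RNA of whole lung was isolated with TRIzol and made into libraries with an Illumina TruSeq total RNA kit, read as 100-base single ends. Per the series' design text and the submitters' processing notes, the authors trimmed reads, mapped them to mm9 with TopHat2 2.0.8b and assigned them to genes with HTSeq. What the authors deposited are whole-number read counts for each gene, not normalized, with a table for every library. HTSeq's strand setting and annotation stand in none of the sources used here, so overlapping and antisense genes cannot be told apart. Reads with no feature (37.3% to 40.0% of a library in the knockout set), with several alignments (36.8% to 38.4%) and ambiguous reads stayed out of library sizes and tests.

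Counts of the 6 libraries of the knockout set were fitted in R 4.3.3 with edgeR 4.0.16 (TMM, filterByExpr, 1 mean per group, glmQLFit and glmQLFTest, 2 residual degrees of freedom), and p-values were adjusted by the Benjamini-Hochberg method over 15294 genes, with 0.05 as the threshold. The single PBS library of a genotype is taken to vary as the replicated groups do. DESeq2 1.42.0, other normalizations, other filters, other sets of libraries and the fit without each replicate were alternatives. The script was tested on simulated counts. The replicates of a group were checked for a library deposited more than once, and they differed by more than counting noise (chi-square per degree of freedom 34.3 in DKO and 9.68 in WT). Log2 ratios between PBS libraries use a prior count of 2. Coordinates are NCBIM37 (mm9) from GENCODE mouse release 1, which holds 95.7% of the gene names, and promoters are from RefSeq (GRCm38.p6).

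Genes were named by rule: the targeted genes, up to 15 largest rises and 15 largest falls among calls whose mean log2 CPM reached 1 and whose genotypes did not overlap, unnamed models passed over, the 4 members of smallest p of a list, and a preset group of cytokines, chemokines and interferons. The comparison, the 40 gene lists and this rule were chosen with earlier results of these data known. Genes outside the rule are marked in the text as chosen after their values were seen, or are named to account for all members of a list that were called. A few genes that the rule names are not reported here.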

Additional observations from a re-analysis of the deposited data

How the results depend on the processing

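The counts of calls depended mostly on the tool and on the replicates. DESeq2 called 729 genes, 528 lower and 201 higher, and included 381 of the 387 calls of edgeR. Without a filter on low counts 127 genes were called higher. Leaving out each replicate in turn gave 7 to 3048 calls in all, 7 to 1775 lower and 0 to 1273 higher, since the pair that stays complete sets the spread. All 387 calls were made in the same direction without either DKO library, and 6 of the 7 calls without WT replicate 3 and all 17 without WT replicate 4 were among the 387. With RLE scaling, upper quartile scaling, the stricter filter, the 4 libraries with extract alone and all 12 libraries the total was 347 to 469. Of 80 named genes called, DESeq2 size factors in edgeR kept 77, upper quartile scaling 75, and all 12 libraries 61 of the 78 that could be tested there, while the fit without WT replicate 3 kept 6 and that without WT replicate 4 kept 9. The baseline counts of 52 and 8 became 53 and 8 with a prior count of 0.5. Upper quartile scaling moved the median log2 fold change of all genes to 0.0567.

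Signs of genes that were not called turned in the fits that leave out a replicate, whose log2 fold changes ran from -1.99 to 0.26 for Ccl11, -0.48 to 2.39 for Ccl17, -4.74 to 1.31 for Ccl24, -0.67 to 1.24 for Ciita, -2.14 to 0.05 for Il1b, -0.14 to 0.20 for Il33, -0.38 to 4.06 for Muc5b, -0.13 to 0.57 for Scgb1a1, -0.86 to 0.02 for Tsix and -0.55 to 0.00 for Tslp. The cause was not tested. No paired analysis was possible because the sample titles number the libraries in a row and pair no DKO library with a WT library. With 2 libraries per genotype, interferon transcripts near the floor of 3 counts set the limit of what could be detected.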

Other observations

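Of 25 genes of cell division tested, 3 fell in DKO lungs with extract (Top2a, Mki67 and Bub1b). All 25 had a negative log2 fold change, with a median of -0.68, while with PBS 22 of the 25 were higher in DKO, with a median log2 ratio of 0.43. Mki67, a marker of cycling cells, had 26.0 and 31.8 CPM in DKO and 53.9 and 62.9 CPM in WT, with 34.9 CPM in DKO with PBS and 19.1 CPM in WT with PBS (log2 fold change -1.01 ± 0.14, adjusted p = 0.0344). The WT libraries with extract were the highest of the set in Mki67. Without DKO replicate 5 and DKO replicate 6, 10 and 14 of these genes were called lower, and without either WT library none was.

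Of 16 circadian clock genes, Nr1d1 and Hlf rose. Nr1d1, the repressor REV-ERB alpha, had 71.4 and 62.6 CPM in DKO and 19.8 and 22.4 CPM in WT, with 51.4 CPM in DKO with PBS and 71.8 CPM in WT with PBS (log2 fold change 1.67 ± 0.12, adjusted p = 0.00959). Hlf had 14.9 and 15.3 CPM in DKO and 6.61 and 8.1 CPM in WT, with 15.4 CPM in DKO with PBS and 9.56 CPM in WT with PBS (1.04 ± 0.16, adjusted p = 0.042). In both genes the WT libraries with extract were the lowest of the set. The time of day at which lungs were taken is not given in the sources used here, and its part in these values was not tested. In the fits without DKO replicate 5 and DKO replicate 6, 7 and 5 clock genes were called higher, and in those without a WT library none was.

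Within 10 Mb of Tlr3, none of 57 genes tested was called in edgeR, 9 had an unadjusted p below 0.05, and DESeq2 called 1. Over all genes tested 18.2% had an unadjusted p below 0.05. Within 10 Mb of Mavs, 7 of 152 were called, 6 lower and 1 higher, beside 2.53% of all genes tested. Without DKO replicate 5 and DKO replicate 6 the counts were 15 and 9 near Tlr3 and 36 and 29 near Mavs, and without either WT library 0 at both. Of these, Casc4 had 54.2 and 56.6 CPM in DKO and 124 and 127 CPM in WT, with 63.1 CPM in DKO with PBS and 133 CPM in WT with PBS. Eif3j had 1.75 CPM in both DKO libraries and 7.5 and 6.54 CPM in WT, with 2.08 CPM in DKO with PBS and 5.12 CPM in WT with PBS. Casc4 and Eif3j thus differed between genotypes with extract and between the single PBS libraries. The macrophage lectin Siglec1 had 28.3 and 17.7 CPM in DKO and 100 and 77.8 CPM in WT, but 24.1 CPM in DKO with PBS and 22 CPM in WT with PBS. These 3 genes were chosen after their values were seen.

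In the remaining lists 1 of 8 mast cell, eosinophil and basophil markers rose: Siglec5, already counted among the alveolar macrophage markers. No red cell marker of 6, adipose marker of 10, glucocorticoid-induced gene of 13 or sex-linked gene of 6 was called in edgeR. At an unadjusted p below 0.05 there were 0, 3, 7 and 1 in that order, beside 18.2% of all genes tested. Some of the counts without single libraries that follow lie near or below the shares of all genes given with the whole transcriptome. With DKO replicate 5 left out 4 red cell, 5 adipose and 9 glucocorticoid-induced genes were called higher, and 1 adipose, 1 glucocorticoid-induced and 2 sex-linked genes lower. With DKO replicate 6 left out 2 adipose and 5 glucocorticoid-induced genes were called higher and 2 of each lower, and with either WT library left out none was called. DESeq2 called 2 adipose and 3 glucocorticoid-induced genes. Fkbp5 and Zbtb16, glucocorticoid-induced genes chosen after their values were seen, stood apart in DKO replicate 6. Fkbp5 had 48.9 and 159 CPM in DKO and 41.1 and 24.5 CPM in WT, and Zbtb16 had 200 and 460 CPM in DKO and 160 and 143 CPM in WT.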
